A study of Bos grunniens and Bos grunniens x Bos taurus with 12 samples.

Results

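The Notch pathway genes were followed in the testes of yak and cattle–yak at the level of translation. Ribo-seq reads the stretches of mRNA that lie inside ribosomes and escape the nuclease. The reads on a gene reflect both the amount of its mRNA and the number of ribosomes on each mRNA. RNA-seq was not used here, so these cannot be told apart in the values below. The paper did set RNA-seq of its yaks of 4 years and cattle–yaks beside the Ribo-seq. It listed Notch signaling among the main pathways enriched in genes whose ratio of footprints to mRNA differed between them. The genes were chosen by symbol as the receptors *NOTCH1*, *NOTCH2*, *NOTCH3* and *NOTCH4*, the ligands *JAG1*, *JAG2* and *DLL4*, and the target genes *HES1*, *HEY1* and *HEYL*. Of these 10 symbols, 9 were found among the 20965 genes of the tables, and *DLL4* is not among the symbols of the tables. The study held 12 libraries of testis, with 3 animals in each of 4 groups, and no group received a treatment that the labels name. The yaks (*Bos grunniens*) were males of 6 months, labelled juvenile, of 18 months, labelled puberty, and of 4 years, labelled sexual maturity. The cattle–yaks, also labelled 4 years and sexual maturity, were hybrids of *Bos grunniens* and *Bos taurus*, which the study bred from Jersey bulls and Gannan yak cows and whose males are known to be sterile. The labels give castration as the source of all testes, whereas the methods of the paper give euthanasia for the yaks of 4 years, so the way of collection cannot be told apart from the group in comparisons of these yaks with the cattle–yaks.

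Notch receptors sit in the cell membrane and are cut when they bind a ligand of the Jagged or Delta-like families on a neighbouring cell. The freed intracellular part enters the nucleus, where it joins RBPJ and a Mastermind protein on DNA and turns on genes of the HES and HEY families, which encode transcriptional repressors. In the testis the pathway is best known in Sertoli cells, where *HES1* and *HEY1* act downstream of JAG1 carried by germ cells and repress *GDNF* and *CYP26B1*, and in blood vessels, where *NOTCH4* and *DLL4* are typical of endothelial cells and *NOTCH3* of pericytes and smooth muscle cells.

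Values are given as FPKM, the footprint count of a gene per kilobase of its length and per unit of the library total, in the order of replicates 1, 2 and 3. The total count on genes was 25816963 to 37167651 in yaks of 6 months, 21309151 to 24542362 at 18 months, 16304058 to 17862516 at 4 years and 38437889 to 52616039 in the cattle–yaks. Fold changes come from edgeR's quasi-likelihood test on the counts, scaled by TMM, and a gene was called when its Benjamini-Hochberg adjusted p was below 0.05 and its log2 fold change at least 1 in either direction. The 5 comparisons share libraries, since each group entered more than 1 of them. All 5 tabulated Sertoli cell markers had counts in every group, whereas markers of spermatids, the haploid germ cells, separated the libraries. The summed level of 7 spermatid markers was 0.84 to 1.04 FPKM in yaks of 6 months, 9398 to 12202 FPKM in yaks of 4 years and 2.29 to 31.9 FPKM in cattle–yak. In the yaks of 18 months it was 1.38, 6988 and 15.1 FPKM, so replicate 2 of this group stood apart from its group and near the yaks of 4 years. The tissue was bulk testis, in which fewer cells of a type and less RNA per cell cannot be told apart.

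Per length, *NOTCH2* was the highest of the 9 genes, with a mean of 59.6 FPKM over the 12 libraries. *HEYL* followed with 22.1, *JAG1* with 14.0, *NOTCH1* with 12.1, *HES1* with 9.89, *JAG2* with 5.61, *NOTCH3* with 3.92, *NOTCH4* with 1.54 and *HEY1* with 1.49 FPKM. Each of these means spans groups that differ, and the order changed between groups. *JAG1* was above *JAG2* in all 6 younger yaks, below it in all 3 yaks of 4 years, and below it in 2 of the 3 cattle–yaks. All 9 genes passed the filter on low counts in every comparison. *HEY1* was measured least precisely, at 18 to 85 counts per library, against 3146 to 22557 counts for *NOTCH2*.

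Between 6 months and 4 years, 7 of the 9 genes were called. *JAG2* and *NOTCH4* rose, and *NOTCH2*, *NOTCH3*, *JAG1*, *HES1* and *HEYL* fell, while *NOTCH1* and *HEY1* were not called. Over all 16133 genes tested, 55.7% were called in this comparison, 31.0% higher and 24.7% lower. The FPKM ranges of these 7 genes did not overlap between the ages, as was so for 76.4% of all genes tested. The median log2 fold change of the 9 genes was −2.04, against 0.08 for all genes tested.

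**Figure D1:**
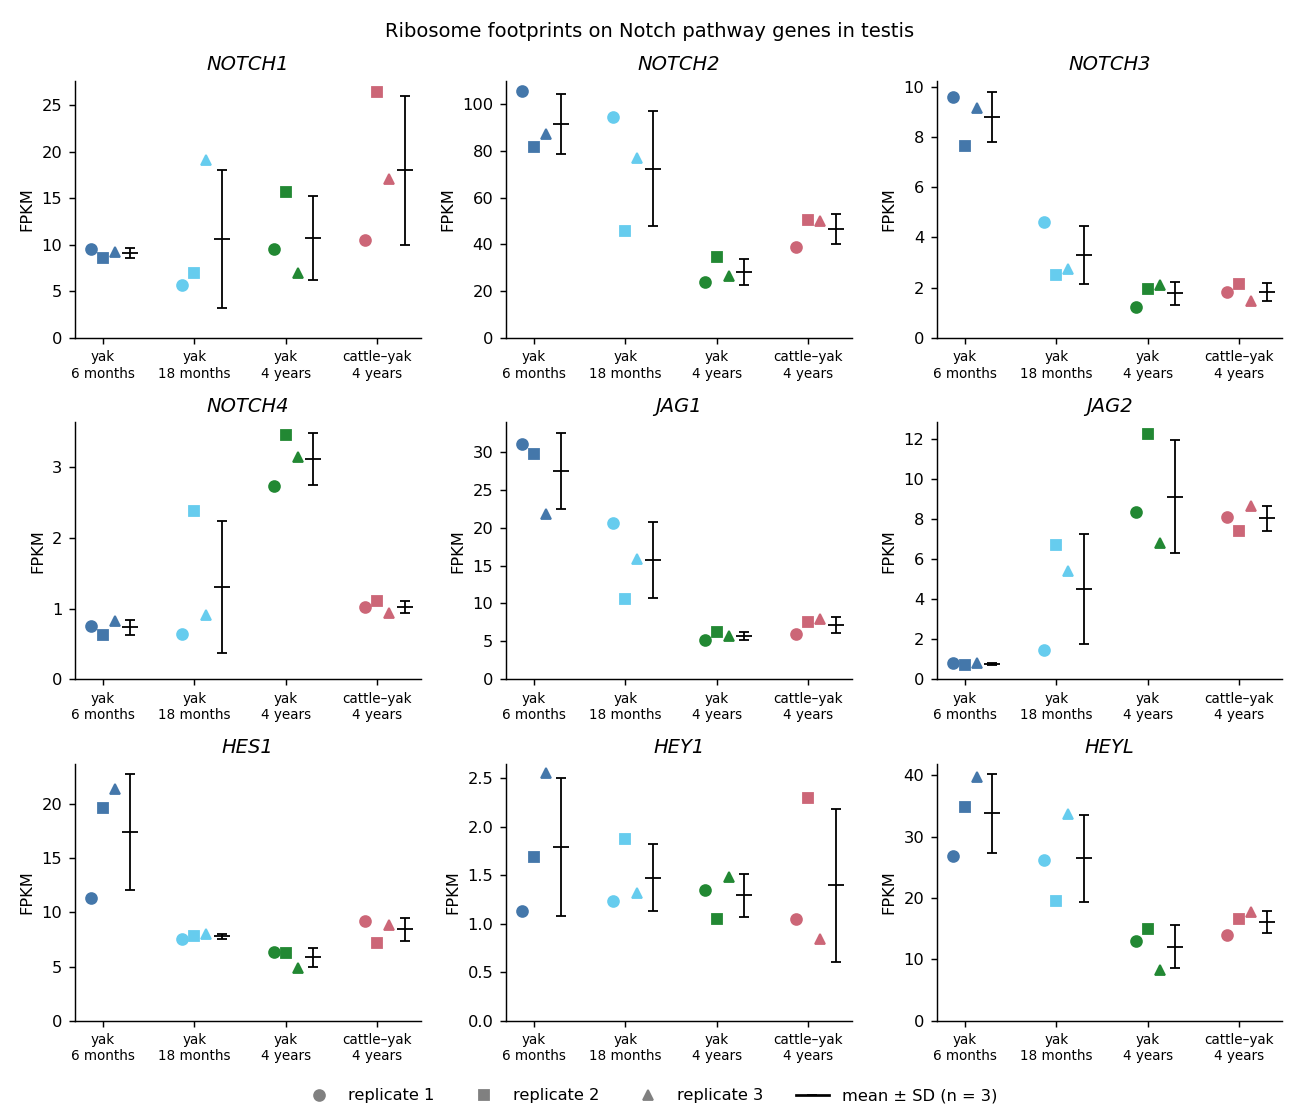
Translation level (FPKM, linear axis from 0) of the 9 Notch pathway genes in each of the 12 testis libraries, by group. Symbols mark replicates 1 to 3, and the bar beside them is the mean ± SD (n = 3). On average, *JAG2* and *NOTCH4* are lowest in yaks of 6 months, whereas *NOTCH2*, *NOTCH3*, *JAG1*, *HES1* and *HEYL* are highest there, and *NOTCH4* in cattle–yak lies at 0.93 to 1.10 FPKM, under all yaks of 4 years.

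Among the receptors, *NOTCH2* (ENSBGRG00000013357), a receptor of broad expression, was measured at 106, 81.5 and 87.2 FPKM at 6 months, at 94.4, 45.8 and 76.9 FPKM at 18 months, at 23.8, 34.4 and 26.6 FPKM at 4 years and at 39.0, 50.4 and 49.8 FPKM in cattle–yak. Every yak of 4 years lay below every younger yak, and every cattle–yak lay between the yaks of 4 years and of 6 months. From 91.5 ± 12.7 FPKM at 6 months to 28.3 ± 5.51 FPKM at 4 years (SD, n = 3 each), *NOTCH2* fell by 2.28 on the log2 scale (SE 0.229, edgeR adjusted p = 2.38e-05).

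The level of *NOTCH3* (ENSBGRG00000018066), the receptor of pericytes and vascular smooth muscle, was 9.58, 7.66 and 9.15 FPKM at 6 months, 4.61, 2.51 and 2.76 FPKM at 18 months, 1.23, 1.96 and 2.11 FPKM at 4 years and 1.83, 2.16 and 1.47 FPKM in cattle–yak. The 3 yak ages did not overlap, whereas the cattle–yaks lay within the range of the yaks of 4 years or just above it. *NOTCH3* was 7.49-fold lower at 4 years than at 6 months (log2 fold change −2.91, SE 0.233, edgeR adjusted p = 5.90e-06).

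A rise with age was seen for *NOTCH4* (ENSBGRG00000017319), the receptor typical of endothelium. Its values were 0.76, 0.62 and 0.82 FPKM at 6 months, 0.64, 2.38 and 0.91 FPKM at 18 months, 2.73, 3.46 and 3.15 FPKM at 4 years and 1.02, 1.10 and 0.93 FPKM in cattle–yak. The 3 yaks of 4 years were above all 9 other libraries, and the nearest of these was replicate 2 at 18 months, the library with spermatid markers near the level of 4 years. *NOTCH4* rose 2.84-fold from 6 months to 4 years (log2 fold change 1.51, SE 0.212, edgeR adjusted p = 0.000202).

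The values of *NOTCH1* (ENSBGRG00000025848), the receptor for which the pathway is best studied, were 9.55, 8.56 and 9.25 FPKM at 6 months, 5.67, 7.00 and 19.1 FPKM at 18 months, 9.52, 15.7 and 7.00 FPKM at 4 years and 10.5, 26.5 and 17.1 FPKM in cattle–yak. The 3 yak ages overlapped, with a wide spread at 18 months and 4 years. Its log2 fold change from 6 months to 4 years was −0.34 (SE 0.268, edgeR adjusted p = 0.271), and the sign turned with the scaling, to 0.24 with library size alone.

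The Jagged ligands moved in opposite directions with age. *JAG1* (ENSBGRG00000009959) was measured at 31.0, 29.7 and 21.8 FPKM at 6 months, at 20.7, 10.6 and 15.9 FPKM at 18 months, at 5.13, 6.24 and 5.70 FPKM at 4 years and at 5.90, 7.54 and 7.94 FPKM in cattle–yak. Each yak age lay below the one before it with no overlap. *JAG1* was 7.25-fold lower at 4 years than at 6 months (log2 fold change −2.86, SE 0.205, edgeR adjusted p = 2.99e-06).

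*JAG2* (ENSBGRG00000006002) stood at 0.79, 0.69 and 0.81 FPKM at 6 months, at 1.45, 6.70 and 5.40 FPKM at 18 months, at 8.34, 12.2 and 6.79 FPKM at 4 years and at 8.08, 7.41 and 8.65 FPKM in cattle–yak. All libraries of 6 months were below all others, and at 18 months replicate 1 was low while replicates 2 and 3 neared the level of 4 years. From 0.763 ± 0.0643 FPKM to 9.13 ± 2.81 FPKM (SD, n = 3 each), *JAG2* rose 8.06-fold between 6 months and 4 years (log2 fold change 3.01, SE 0.258, edgeR adjusted p = 8.99e-06).

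The make-up of the receptors and ligands followed from these values and is a description, chosen after the values were seen. *JAG1* was 97.2% ± 0.709 of the summed FPKM of both ligands at 6 months, 39.2% ± 6.02 at 4 years and 46.8% ± 4.21 in the cattle–yaks (SD, n = 3 each). At 18 months its share was 93.4%, 61.3% and 74.6%, so no 18-month library lay within the range of 6 months or of 4 years. *NOTCH2* made up 83.0% ± 1.12 of the 4 receptors at 6 months and 64.7% ± 3.35 at 4 years, and *NOTCH1* made up 8.33% ± 0.634 and 23.9% ± 5.32. The share of *NOTCH4* was 0.668% ± 0.0893 at 6 months, 7.22% ± 0.940 at 4 years and 1.55% ± 0.342 in the cattle–yaks, with no overlap between the yaks of 4 years and the other groups. The summed FPKM of the 4 receptors was 110 ± 14.0 at 6 months, 43.9 ± 10.1 at 4 years and 67.3 ± 14.0 in the cattle–yaks.

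**Figure D2:**
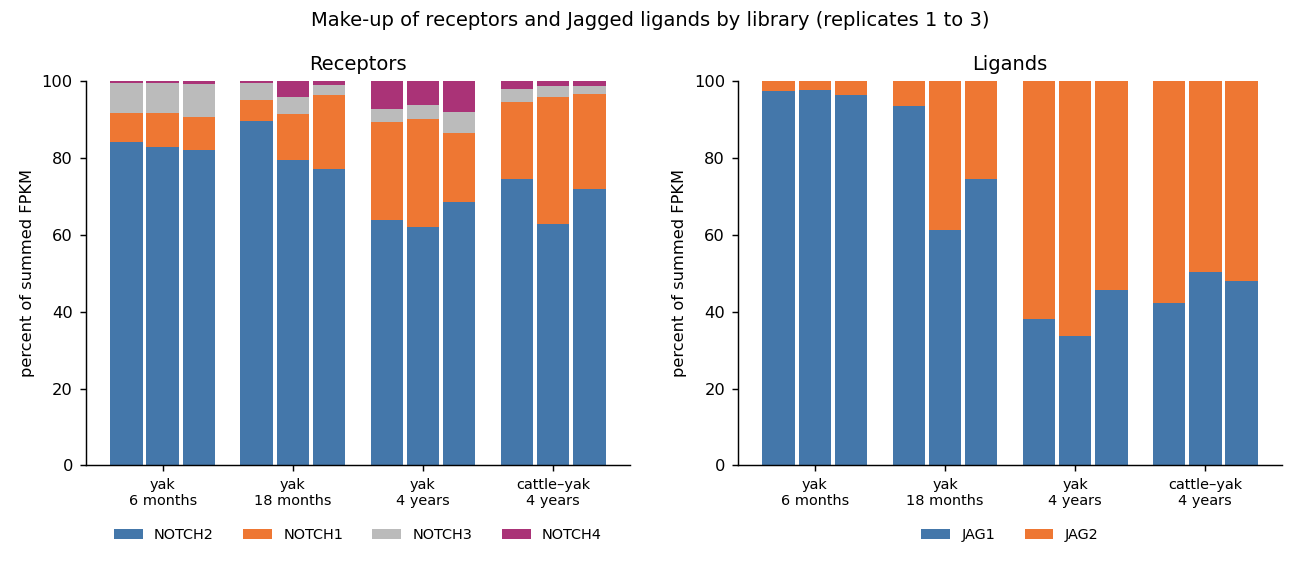
Share of each receptor in the summed FPKM of the 4 receptors (left) and of each ligand in that of both Jagged ligands (right), in percent, with 1 bar per library. *JAG1* held 96.4% to 97.7% of the ligands at 6 months and 33.7% to 45.6% at 4 years, and *NOTCH4* held 6.23% to 8.10% of the receptors in yaks of 4 years.

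Of the target genes, *HES1* (ENSBGRG00000024386), which encodes a repressor and is a direct target of the receptors in many tissues, was at 11.4, 19.6 and 21.4 FPKM at 6 months, at 7.57, 7.85 and 7.97 FPKM at 18 months, at 6.38, 6.29 and 4.85 FPKM at 4 years and at 9.24, 7.22 and 8.87 FPKM in cattle–yak. The yak ages did not overlap, and the 18-month libraries, the one with spermatid markers included, were close to each other. *HES1* was 4.36-fold lower at 4 years than at 6 months (log2 fold change −2.12, SE 0.249, edgeR adjusted p = 6.44e-05).

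*HEYL* (ENSBGRG00000000802), a repressor gene of the HEY family, was measured at 26.9, 34.8 and 39.7 FPKM at 6 months, at 26.2, 19.5 and 33.7 FPKM at 18 months, at 13.1, 14.9 and 8.21 FPKM at 4 years and at 14.0, 16.5 and 17.6 FPKM in cattle–yak. The yaks of 6 and 18 months overlapped, and the yaks of 4 years were below both. *HEYL* was 4.12-fold lower at 4 years than at 6 months (log2 fold change −2.04, edgeR adjusted p = 5.86e-05).

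*HEY1* (ENSBGRG00000017930) had 1.13, 1.69 and 2.55 FPKM at 6 months, 1.23, 1.87 and 1.32 FPKM at 18 months, 1.35, 1.05 and 1.48 FPKM at 4 years and 1.05, 2.30 and 0.84 FPKM in cattle–yak. All groups overlapped, at 18 to 85 counts per library. The log2 fold change of *HEY1* from 6 months to 4 years was −1.02 (SE 0.413, edgeR adjusted p = 0.0503), just outside the call, and was called without replicate 1 of 6 months (−1.21).

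The scale bears on these folds. TMM placed the median of all tested genes at a log2 fold change of 0.08 between 6 months and 4 years, and library size alone, the basis of FPKM, placed it at 0.64. Falls are therefore larger on the TMM scale than as ratios of mean FPKM, for example −2.28 against −1.70 for *NOTCH2*, and rises are smaller, 3.01 against 3.58 for *JAG2*. Relative to the median of all genes, *NOTCH1* was at −0.42 with TMM and at −0.40 with library size alone, and *NOTCH2* at −2.36 and −2.34. Of all calls in this comparison, 55.7% were higher with TMM and 72.6% with library size alone.

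Neither step within this span gave a call among the 9 genes. Between 6 and 18 months 0 of the 9 genes were called, and 5 had an unadjusted p below 0.05, where 0.0672% of the 14874 genes tested were called and 25.8% had such a p. The largest differences were those of *JAG2* (log2 fold change 2.15, SE 0.510, edgeR adjusted p = 0.0807), *NOTCH3* (−1.74, adjusted p = 0.0637) and *HES1* (−1.49, adjusted p = 0.0588), and the FPKM of *JAG1*, *JAG2*, *NOTCH3* and *HES1* did not overlap between these ages, as was so for 37.8% of all genes tested. DESeq2 called 4 of the 9 genes here, 1 higher and 3 lower, where it called 1061 higher and 807 lower over all genes. Without replicate 1 of 18 months, edgeR called *JAG2* higher and *NOTCH3*, *JAG1* and *HES1* lower. Over all 15454 genes tested in that setting, 1344 were called higher and 1249 lower, against 3 and 7 with all libraries. *NOTCH4* stood at 0.43 with all libraries and at −0.25 without replicate 2 of 18 months.

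From 18 months to 4 years 0 of the 9 genes were called by edgeR, 5 had an unadjusted p below 0.05 and DESeq2 called 5, 1 higher and 4 lower. Over all 16175 genes tested, edgeR called 0.0371% and 35.4% had an unadjusted p below 0.05, and DESeq2 called 2092 higher and 2291 lower. The FPKM ranges of 7 of the 9 genes, all but *NOTCH1* and *HEY1*, did not overlap, against 54.5% of all genes tested. The log2 fold change was −1.70 for *JAG1* (SE 0.351, edgeR adjusted p = 0.0691), −1.59 for *NOTCH2* (SE 0.386, adjusted p = 0.0728) and 1.12 for *NOTCH4* (SE 0.449, adjusted p = 0.136). The group held the library with spermatid markers, and without that library 5 genes were called: *NOTCH4* was higher (1.79), and *JAG1* (−1.93), *NOTCH2* (−1.84), *HEYL* (−1.52) and *NOTCH3* (−1.33) were lower. Over all genes tested, 4277 were called higher and 3033 lower without it, against 0 and 6 with all libraries.

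Cattle–yak differed from yak of the same age by 1 called gene, *NOTCH4*, which was 3.03-fold lower (log2 fold change −1.60, SE 0.172, edgeR adjusted p = 7.64e-05). Its 1.02 ± 0.0850 FPKM compared with 3.11 ± 0.366 FPKM in yaks of 4 years (SD, n = 3 each), and the call held without each library in turn, at −1.65 to −1.46. Over all 16498 genes tested, 44.0% were called, 17.1% higher and 27.0% lower. The FPKM ranges of 3 of the 9 genes, *NOTCH4*, *NOTCH2* and *HES1*, did not overlap between these groups, against 71.1% of all genes tested.

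The other receptors were not called. *NOTCH2* was 1.65-fold higher in cattle–yak, with an edgeR adjusted p of 0.00446, and stayed under the fold that a call needs (log2 fold change 0.73, SE 0.163). *NOTCH1* had a log2 fold change of 0.75 (SE 0.367, edgeR adjusted p = 0.103), with cattle–yak replicate 2 at 26.5 FPKM far above replicate 1 at 10.5 FPKM, and it was called higher without replicate 2 of yak of 4 years (1.18) and without replicate 1 of cattle–yak (1.02). For *NOTCH3* the log2 fold change was 0.06 (SE 0.242).

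Both ligands and all 3 targets also stayed outside the call. The log2 fold changes were −0.17 for *JAG2* (SE 0.212, edgeR adjusted p = 0.499), 0.33 for *JAG1* (SE 0.152, adjusted p = 0.0847), 0.54 for *HES1* (SE 0.221, adjusted p = 0.0603), 0.42 for *HEYL* (SE 0.233, adjusted p = 0.148) and 0.12 for *HEY1* (SE 0.467, adjusted p = 0.833). *HES1* was above the range of the yaks of 4 years in every cattle–yak, whereas the ranges of *JAG1*, *JAG2*, *HEYL* and *HEY1* overlapped. The standard error of *HEY1* leaves its direction unsettled, and its sign turned without replicate 2 of cattle–yak (−0.42).

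Set against the juvenile testis, the cattle–yak of 4 years had 6 of 9 genes called, 1 higher and 5 lower, where 37.8% of the 15571 genes tested were called, 18.1% higher and 19.7% lower. The FPKM ranges of 8 of the 9 genes, all but *HEY1*, did not overlap, against 69.8% of all genes tested. *JAG2* was higher (log2 fold change 2.86, edgeR adjusted p = 1.23e-05), beside 3.01 for yak of 4 years over the same 3 juvenile libraries. *NOTCH3* was lower by a log2 fold change of −2.83, beside −2.91 in the yak of 4 years, *JAG1* by −2.50 beside −2.86, *HEYL* by −1.60 beside −2.04, *HES1* by −1.57 beside −2.12 and *NOTCH2* by −1.53 beside −2.28. *NOTCH4* had −0.07 (SE 0.229, adjusted p = 0.796) beside 1.51, and its sign turned with library size alone, to 0.47. *NOTCH1* (0.44, SE 0.300) and *HEY1* (−0.88, SE 0.491) were not called. *NOTCH2* was outside the call with library size alone, at −0.98, as were *NOTCH2* and *HES1* with limma on log2(FPKM + 1), at −0.97 and −0.93.

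**Figure D3:**
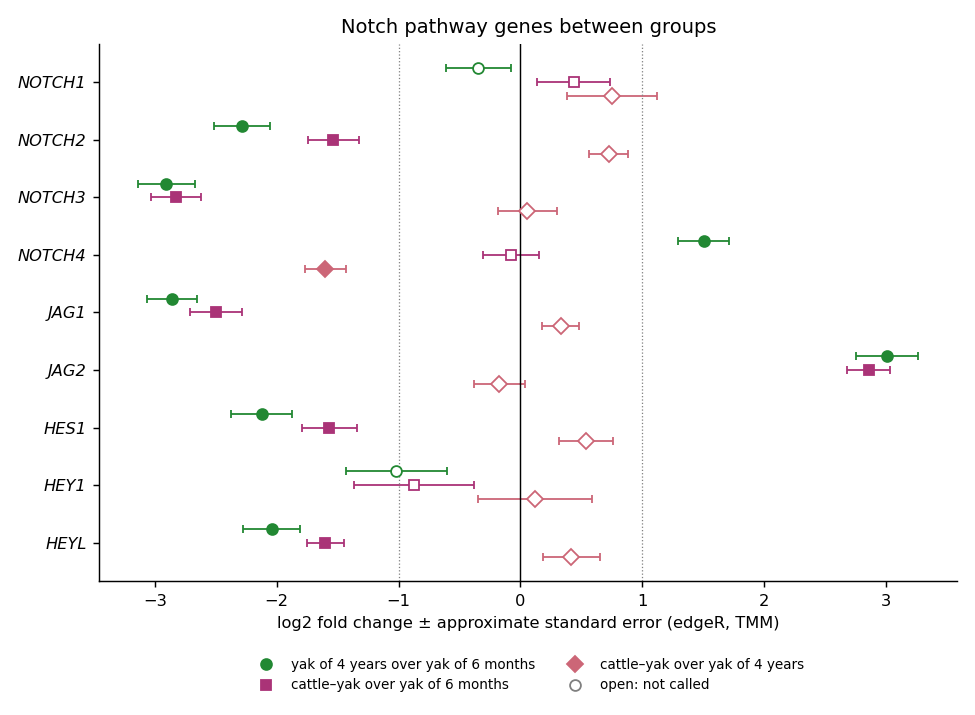
Log2 fold change ± approximate standard error (edgeR, TMM scale) of the 9 genes in 3 comparisons of 3 libraries against 3. Filled symbols were called, and dotted lines mark a log2 fold change of 1 in either direction. *NOTCH4* is the single filled symbol of cattle–yak over yak of 4 years, at −1.60, while *JAG1*, *NOTCH3*, *HES1*, *HEYL*, *NOTCH2* and *JAG2* are filled in both comparisons with yak of 6 months.

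Markers of several cell types also differed between the groups. Over all genes tested, 31.0% were called higher and 24.7% lower in yak of 4 years than of 6 months. In cattle–yak against yak of 4 years 17.1% were called higher and 27.0% lower. Of 11 endothelial markers, 9 were called lower and 0 higher in yak of 4 years than of 6 months. Their summed level was 155 to 285 FPKM at 6 months, most of it from *CLDN5* at 106.5 to 234 FPKM, and 25.7 to 33.9 FPKM at 4 years. Without *CLDN5*, the other 10 markers summed to 37.5 to 51.6 FPKM at 6 months, 22.1 to 24.5 FPKM at 18 months, 18.0 to 23.1 FPKM at 4 years and 21.5 to 28.3 FPKM in the cattle–yaks. *NOTCH4* rose between these ages. Of the 11 markers, *VWF*, which encodes von Willebrand factor and was named after its values were seen, was at 2.12, 1.82 and 2.51 FPKM at 6 months, 1.82, 3.40 and 1.71 FPKM at 18 months, 6.40, 6.59 and 4.36 FPKM at 4 years and 1.18, 1.43 and 0.68 FPKM in cattle–yak. Its FPKM values at 4 years lay above those at 6 months without overlap, with a log2 fold change of 0.85 (edgeR adjusted p = 0.00569), under the fold that a call needs. In cattle–yak against yak of 4 years *VWF* was the 1 endothelial marker called lower (−2.39, edgeR adjusted p = 0.000182), and 3 were called higher. *CDH5*, with *CLDN5* the highest of the list on average, went the other way from *VWF*. It was at 8.85 to 15.0 FPKM at 6 months, 2.81 to 3.39 FPKM at 4 years and 4.70 to 6.00 FPKM in cattle–yak.

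At 4 years against 6 months, 3 of 6 pericyte markers were called lower and 0 higher, beside 24.7% of all genes called lower. Cattle–yak against yak of 4 years had 17.1% of all genes called higher, and 2 of the 6 markers called higher and 0 lower. Their sum, 242 to 470 FPKM at 6 months, 54.3 to 67.5 FPKM at 4 years and 114 to 147 FPKM in cattle–yak, was carried by *RGS5* and *PDGFRB*. The other 4 summed to 13.7 to 15.99 FPKM at 6 months, 12.3 to 14.7 FPKM at 4 years and 14.3 to 19.5 FPKM in cattle–yak, with overlap between all of these groups. All 5 fibroblast markers were called lower at 4 years than at 6 months, and 4 were called higher in cattle–yak than in yak of 4 years, with sums of 2472 to 2615, 128 to 167 and 393 to 657 FPKM in these 3 groups. Both Leydig cell markers in the tables were called lower at 4 years and higher in cattle–yak, with sums of 1585 to 2506, 58.8 to 188 and 580.2 to 1041 FPKM. The fibroblast and Leydig cell sums were lowest in yaks of 4 years, as were the pericyte and endothelial sums. On average *NOTCH2*, *NOTCH3*, *JAG1*, *HES1*, *HEYL* and *HEY1* were also lowest there. A low at 4 years was thus shared by these sums, the pericyte one through *RGS5* and *PDGFRB*. Whether any of these cell types accounts for the low of the Notch pathway genes was not tested.

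Of 6 markers of peritubular myoid cells, the smooth muscle cells around the tubules, 3 were called lower and 0 higher at 4 years than at 6 months, and all 6 were called higher in cattle–yak than in yak of 4 years, a comparison in which *NOTCH3* had a log2 fold change of 0.06. They summed to 146 to 247 FPKM at 6 months, 215 to 224 FPKM at 4 years and 799.7 to 1319 FPKM in cattle–yak. At 4 years against 6 months, 0 of 6 macrophage markers were called higher and 4 lower, beside 31.0% and 24.7% of all genes. Cattle–yak against yak of 4 years had 1 of 6 called higher and 1 lower, beside 17.1% and 27.0% of all genes. The macrophage sums were 336 to 514, 124 to 290.1 and 174 to 236 FPKM. Of 5 Sertoli cell markers, 1 was called higher and 3 lower at 4 years than at 6 months, and 2 were called higher and 0 lower in cattle–yak than in yak of 4 years. They summed to 225 to 248 FPKM at 6 months and 168 to 299.5 FPKM at 18 months. At 4 years the sum was 116 to 184 FPKM and in the cattle–yaks 388 to 415 FPKM. Without *SOX9* and *WT1*, the other 3 summed to 73.7 to 111 FPKM at 6 months and 51.3 to 82.6 FPKM at 18 months. These 3 summed to 46.3 to 91.15 FPKM at 4 years and 73.75 to 87.4 FPKM in the cattle–yaks, with overlap between all groups.

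The germ cell lists differed among themselves. All 7 spermatid markers and 6 of 7 spermatocyte markers were called higher at 4 years than at 6 months, beside 31.0% of all genes. In cattle–yak against yak of 4 years all 7 spermatid markers and 2 spermatocyte markers were called lower, beside 27.0% of all genes. Spermatocyte markers summed to 125 to 188 FPKM at 6 months and 750.5 to 804 FPKM at 4 years. *HORMAD1*, which was not called with age, made up 123, 138 and 183 FPKM of the first of these sums, and the other 6 markers summed to 2.23 to 7.45 FPKM at 6 months, 506 to 588 FPKM at 4 years and 133 to 321 FPKM in cattle–yak. Of 5 spermatogonial markers, 1 was called higher and 1 lower at 4 years than at 6 months. In cattle–yak against yak of 4 years 2 were called higher and 0 lower, beside 17.1% of all genes called higher. The sums were 246 to 371 FPKM at 6 months, 469.8 to 728 FPKM at 4 years and 988 to 1160 FPKM in cattle–yak. Without *UCHL1* and *ID4*, the other 3 summed to 50.9 to 90.5, 50.5 to 56.0 and 64.7 to 85.2 FPKM in these groups. *NOTCH4* was high in the 4 libraries with high spermatid markers and at or under 1.10 FPKM in the other 8. *JAG2* reached 7.41 to 8.65 FPKM in cattle–yak, where spermatid markers stayed at or under 31.95 FPKM. The part of these cell types in the levels of the Notch pathway genes was not tested.

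**Figure D4:**
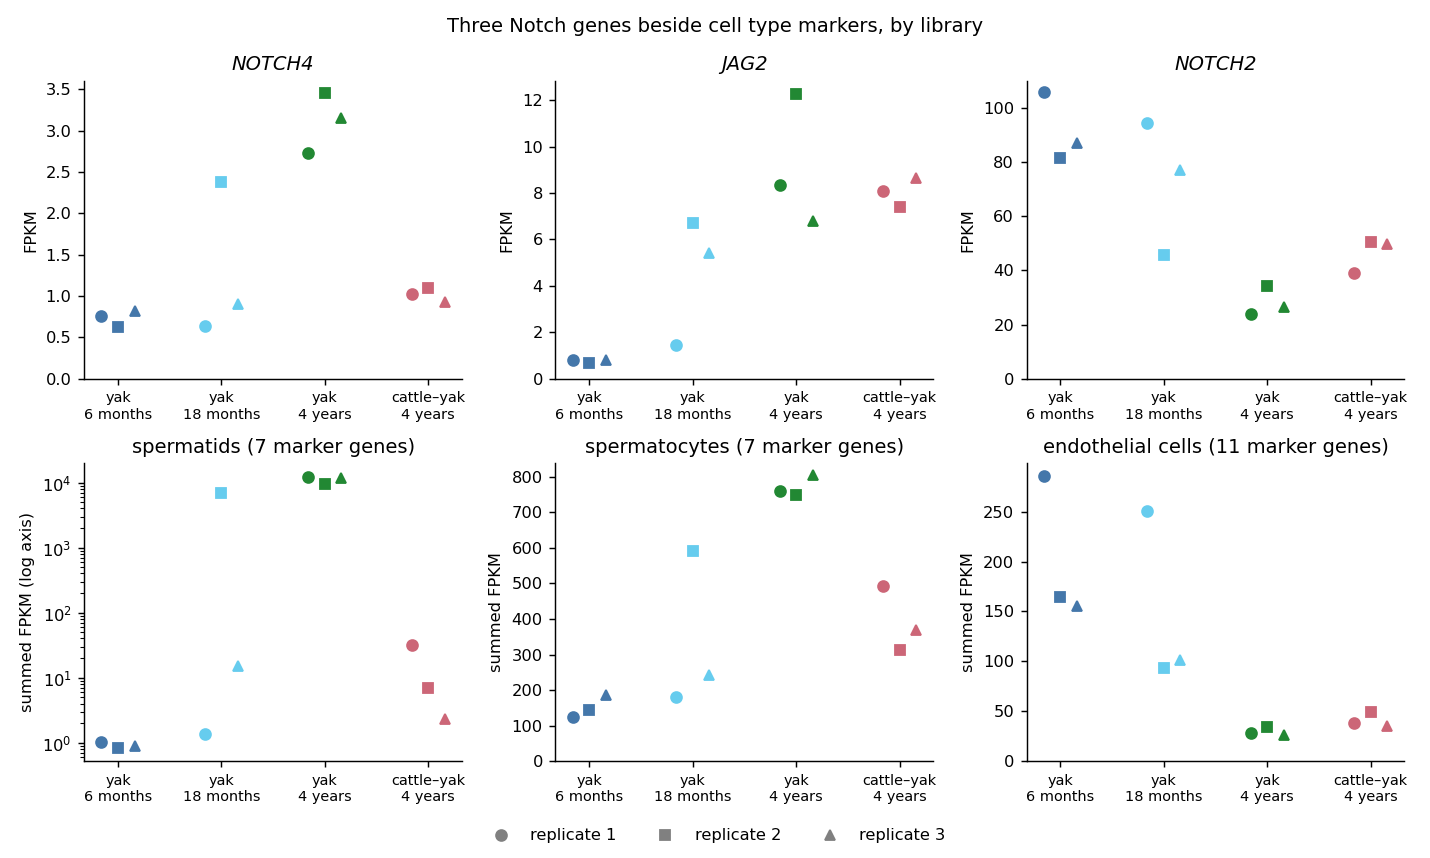
FPKM of *NOTCH4*, *JAG2* and *NOTCH2* (top) and summed FPKM of the markers of spermatids (log axis), spermatocytes and endothelial cells (bottom), for each library by group, the last sum being mostly *CLDN5* in the younger yaks. Replicate 2 of yak at 18 months has 2.38 FPKM of *NOTCH4* and 6988 FPKM of spermatid markers, whereas *JAG2* is high in cattle–yak, where spermatid markers are at 2.29 to 31.9 FPKM.

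The rest of the pathway was read from a list of 66 other genes, of which 60 were in the tables. Between 6 months and 4 years 11 of the 57 genes tested were called higher and 19 lower, against 31.0% and 24.7% of all genes. With library size alone the list gave 17 higher and 9 lower, where all genes gave 6596 higher and 2493 lower. The list of ligands outside the Jagged pair held the greatest difference. *DLK2*, a Notch-binding protein without the domain that activates the receptor, had 1 count in each library of 6 months and 281 to 452 counts at 4 years, a ratio of 680 per total count (95% counting interval 232 to 3301, counting error only). *DLL3*, a divergent Delta-like ligand, rose from 0.0733 ± 0.0493 FPKM to 5.49 ± 0.326 FPKM (SD, n = 3 each; log2 fold change 5.74, edgeR adjusted p = 7.39e-06). *DLL1*, a Delta-like ligand that activates the receptors, fell (log2 fold change −1.51, edgeR adjusted p = 0.00153), a call that was lost with library size alone (−0.93).

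Genes that act on the ligands and receptors changed in both directions between 6 months and 4 years. Of the ubiquitin ligases that drive ligand uptake, *NEURL1* rose (log2 fold change 3.87, edgeR adjusted p = 7.94e-06) and *NEURL1B* fell (−2.78, adjusted p = 8.29e-05). Of the 7 genes that add sugars to the receptors or cut them on the way to the membrane, 1 rose and 4 fell. Over all genes, 31.0% were called higher and 24.7% lower. The Fringe gene *RFNG* rose (1.85, edgeR adjusted p = 0.000265), and those that fell included the Fringe gene *MFNG* (−2.16, adjusted p = 0.00189) and *POGLUT1*, which encodes a glucosyltransferase (−1.74, adjusted p = 0.000299). Among the proteases that cut the receptor, *NCSTN*, a gamma-secretase subunit, fell (−1.20, edgeR adjusted p = 0.00226). *ADAM10*, which makes the first cut after ligand binding, also fell (−1.02, edgeR adjusted p = 0.00103). *APH1B*, another gamma-secretase subunit, rose (1.05, edgeR adjusted p = 0.00167). With library size alone *NCSTN* (−0.60) and *ADAM10* (−0.43) were no longer called.

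In the nucleus, 3 of 8 genes of the activating complex were called lower and 0 higher: *MAML2* (log2 fold change −3.04), *MAML3* (−1.91) and *CREBBP* (−1.26). Over all genes tested, 24.7% were called lower, and *CREBBP* was outside the call with library size alone (−0.70). *MAML2* and *MAML3* encode Mastermind coactivators and *CREBBP* an acetyltransferase. Of 12 corepressor genes, 2 rose and 4 fell, against 31.0% and 24.7% of all genes, among them *TLE3* (2.25), *TLE2* (−2.09) and *CTBP2* (−1.90). A further list held genes that restrain the pathway or act in turnover. Of these, *NRARP*, a restraining gene and itself a target of Notch, rose from 0, 0.43 and 0.87 FPKM to 6.76, 10.8 and 7.54 FPKM (log2 fold change 3.65, edgeR adjusted p = 0.00170). *DTX4* (−5.10) and *DTX3* (−1.81), both of the Deltex family, fell, and whether they restrain the pathway in testis was not tested. All 3 other HES and HEY genes that could be tested were called higher, as were 31.0% of all genes: *HES2* (4.38), *HEY2* (2.40) and *HES4* (1.41). These rose over the ages in which *HES1* and *HEYL* fell.

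In cattle–yak against yak of 4 years, 9 of 56 other pathway genes were called higher and 10 lower, against 17.1% and 27.0% of all genes. The ligand genes *DLL3* (log2 fold change −3.31, edgeR adjusted p = 1.14e-05), *DNER* (−3.03, adjusted p = 0.000120) and *DLL1* (−2.67, adjusted p = 0.00180) were lower. Of the 5 other ligand genes, 0 were called higher. *DLK2* was not called, though every cattle–yak (28.8 to 41.9 FPKM) was above every yak of 4 years (13.4 to 21.4 FPKM). Also lower were *RFNG* (−3.44), *NRARP* (−3.41), *NEURL1* (−3.29), *SPEN* (−2.00), which encodes a corepressor that binds RBPJ, and *APH1B* (−1.88). *HES4* was called lower as well (−1.23, edgeR adjusted p = 0.00611), as 1 of the 3 other HES and HEY genes tested. *EOGT*, from the list of genes that add sugars to the receptors or cut them, was lower by just the fold that a call needs (edgeR adjusted p = 0.00430). *NRARP* was at 0.97, 0.90 and 0.42 FPKM in cattle–yak, below each yak of 4 years. Higher were *NUMBL*, of the Numb family of Notch inhibitors (1.98, edgeR adjusted p = 2.61e-05), *DTX3* (1.39), *CTBP1* (1.26), *TLE1* (1.23), *NEURL1B* (1.22) and *MAML3* (1.01), which with library size alone was at 0.997 and outside the call.

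Both genes that HES1 and HEY1 are known to repress in Sertoli cells were in the tables. *CYP26B1*, which encodes a retinoic acid-degrading enzyme, was measured at 24.8, 20.8 and 22.7 FPKM at 6 months, 113, 68.9 and 97.5 FPKM at 18 months, 45.4, 60.9 and 46.8 FPKM at 4 years and 97.4, 165 and 73.9 FPKM in cattle–yak. Every cattle–yak was above every yak of 4 years, and *CYP26B1* was called higher there (log2 fold change 1.11, SE 0.279, edgeR adjusted p = 0.00781). *GDNF*, a growth factor for spermatogonial stem cells, had 0 to 18 counts per library and passed the filter only in the comparison of 18 with 6 months, where its log2 fold change was 0.19 (SE 1.16, edgeR adjusted p = 0.928) and its groups overlapped, so a change was not detectable at this depth.

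**Figure D5:**
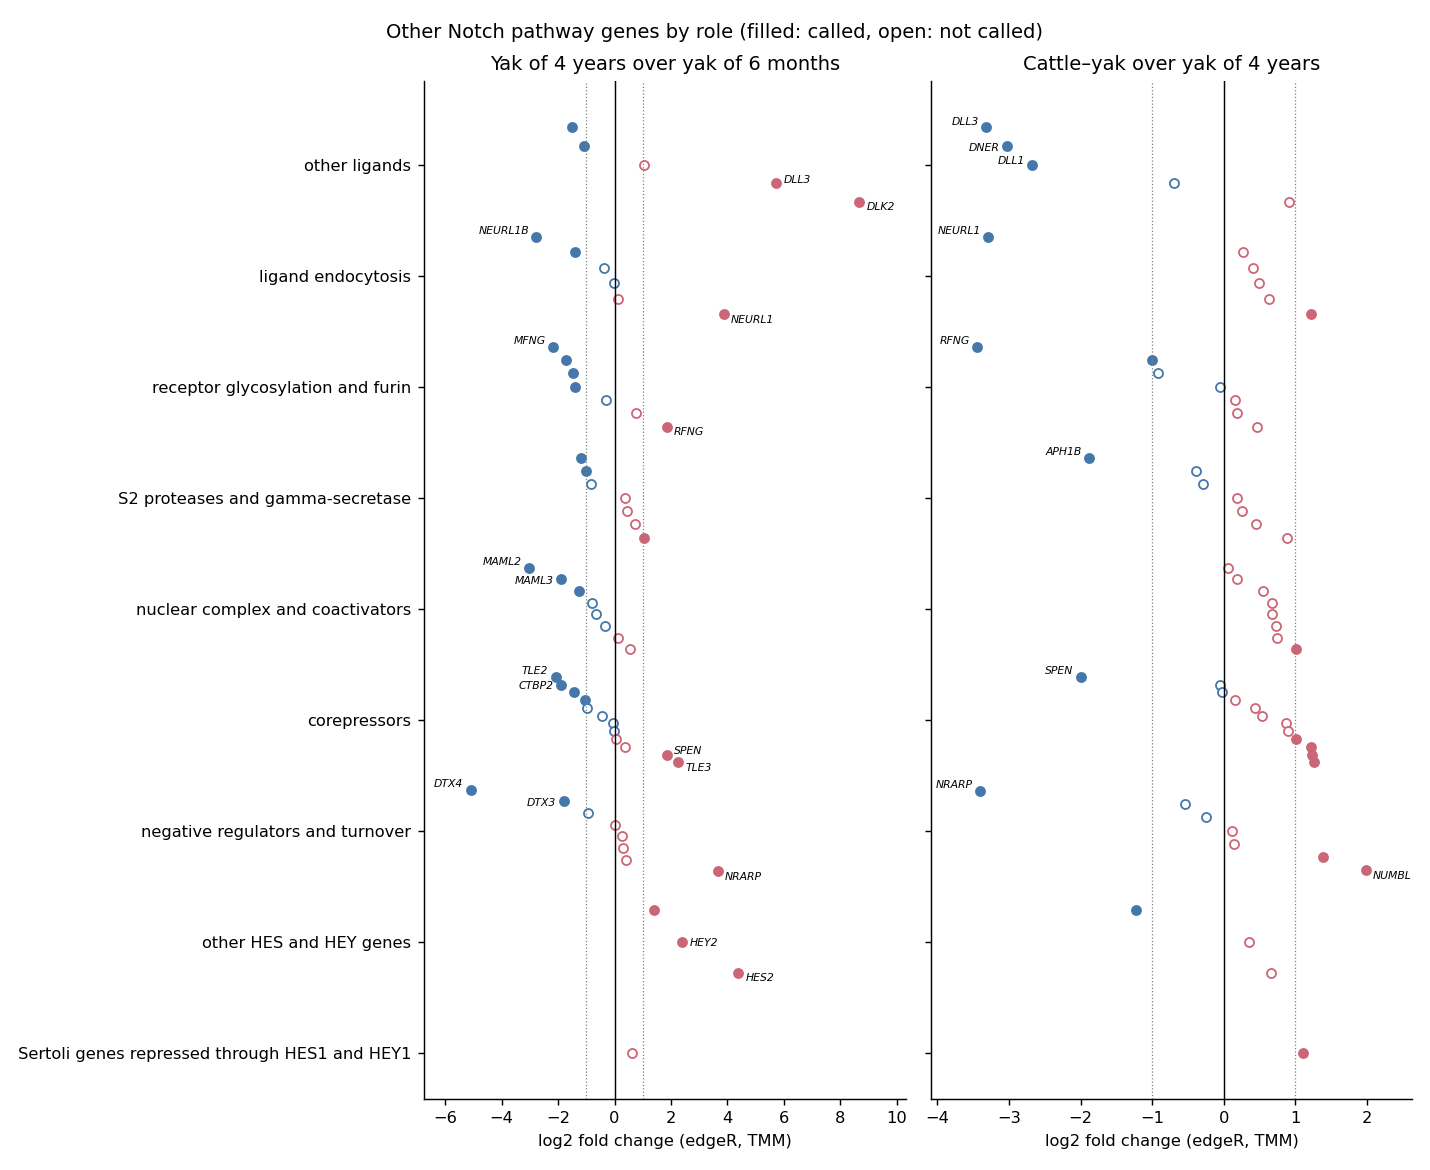
Log2 fold change (edgeR, TMM scale) of the tested other Notch pathway genes by role, for yak of 4 years over 6 months (left) and cattle–yak over yak of 4 years (right). Filled points were called, dotted lines mark 1 in either direction, and called genes with the larger changes are labelled. *DLL3*, *NEURL1*, *RFNG* and *NRARP* lie on the right in the first panel and on the left in the second, and the fitted point of *DLK2* rests on 3 counts over the libraries of 6 months.

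The genes whose pattern over the 12 libraries was most like that of a member were found as those with the least root mean square difference in log2(FPKM + 1), each gene centred on its own mean, among 10701 genes. For *NOTCH4* they were *BRWD1* (0.108), *HECTD4* (0.136) and *USP34* (0.138), and for *JAG1* they were *ARHGAP28* (0.121), *BMPR1A* (0.166) and *SSPN* (0.168). *NOTCH2* was nearest to *ARMH4* (0.142), *CUL7* (0.149) and *SUMF1* (0.156), *HEYL* to *KLF6* (0.173), *NOTCH3* to *PIGS* (0.193) and *JAG2* to *SLC45A4* (0.205). *NOTCH1* had no gene closer than *CDCA4* (0.311). *HEY1* varied little, so its nearest gene, *NR1D2* (0.196), says less, and *HES1* was nearest to *LASP1* (0.222). The libraries share depth and make-up across genes, so these values are descriptions and carry no test.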

How the data were processed

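Testis Ribo-seq libraries of 12 animals were used, with 3 animals in each of 4 groups taken from the labels. The authors kept footprints of 20 to 40 bp, removed rRNA and other small RNA reads, aligned the rest to the yak genome with STAR, also for the hybrids, and quantified genes with RSEM. The deposited expected counts were whole numbers without normalization, and the authors' FPKM divides them by gene length and library total. Columns of the authors' own comparisons (fold changes, p-values) were not used. Each pair of groups was fitted on its own 6 libraries over all genes that passed filterByExpr, with TMM and edgeR's quasi-likelihood test (R 4.3.3, edgeR 4.0.16), and p-values were adjusted by Benjamini-Hochberg over all genes tested. The standard error is the size of the log2 fold change over the square root of F. The fit was tested on simulated data. Alternatives were DESeq2 1.42.0, TMM replaced by library size alone, RLE or the upper quartile, a fit without the filter, 1 fit over all 12 libraries, limma 3.58.1 on log2(FPKM + 1) or log2(FPKM + 0.1), a block for the replicate number, and a fit without each library. Tables and plots were made in Python 3.11.15 (pandas 2.3.3, numpy 2.4.6, matplotlib 3.10.9).

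The members, the other pathway genes, the markers and the tests were chosen with earlier results of these data known. All members were named. Of the other pathway genes, at most the 3 called genes with the largest log2 fold change per role and comparison were named, and *GDNF* and *CYP26B1* always. Of each marker list, counts called and summed FPKM were given, and *VWF* was named outside the rule. The other pathway symbols not found were *EGFL7*, *PSENEN*, *RBPJ*, *ITCH*, *DTX3L* and *HES6*, and 14 of the marker symbols were not found. Symbols were given for 13662 of 20965 genes. Values of libraries held in more than 1 table were identical. Replicates varied beyond counting error (chi-square per degree of freedom 26.4 to 336), and with 1 library per animal the spread of animals and of library preparation cannot be told apart. Gene positions and sequences were not used here.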

Additional observations from a re-analysis of the deposited data

How the results depend on the processing

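Of 675 alternative values, 613 kept direction and side of the threshold, 33 passed it, 5 no longer did and 24 turned sign, all of the last without a call. With library size alone, limma on log2(FPKM + 1) and limma on log2(FPKM + 0.1), *NOTCH1* turned to 0.23, 0.018 and 0.0034 (18 over 6 months), to 0.020, 0.13 and 0.15 (4 years over 18 months) and to 0.24, 0.15 and 0.15 (4 years over 6 months), and *NOTCH4* to 0.47, 0.22 and 0.43 (cattle–yak over 6 months). *HEY1* in cattle–yak over yak of 4 years turned to −0.0074 with limma on log2(FPKM + 0.1) and to −0.0034 with the replicate block. These scalings place the median of all genes at 0.42, 0.31 and 0.37 for 18 over 6 months, against 0.05 with TMM. They raised the share of higher calls in cattle–yak over yak of 6 months from 47.9% to 72.2% with library size alone, and in 18 over 6 months from 30.0% of 10 calls to 68.0%, and to 60.8% with the upper quartile. Over all genes, 3 were called higher and 7 lower for 18 over 6 months, against 1061 and 807 with DESeq2 and 1827 and 828 with all 12 libraries in 1 fit. For 4 years over 18 months they were 0 and 6, against 2092 and 2291, and 1121 and 2365.

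With 1 library left out, log2 fold changes that turned sign ranged over −0.86 to 0.07 (*NOTCH1*) and −0.25 to 0.68 (*NOTCH4*) for 18 over 6 months, −0.50 to 0.55 (*NOTCH1*) for 4 years over 18 months, −0.069 to 0.26 (*NOTCH3*), −0.29 to 0.15 (*JAG2*) and −0.42 to 0.39 (*HEY1*) for cattle–yak over yak of 4 years, and −0.22 to 0.024 (*NOTCH4*) for cattle–yak over yak of 6 months. Members called for 18 over 6 months were 1 higher and 3 lower with DESeq2 and with all 12 libraries in 1 fit, and 0 to 1 and 0 to 3 with 1 library left out. For 4 years over 18 months they were 1 higher and 4 lower with DESeq2 and with all 12 libraries, and 0 to 1 and 0 to 4 with 1 left out. Members called higher in cattle–yak over yak of 4 years were 0 to 1 with 1 left out. Members called lower in cattle–yak over yak of 6 months were 3 with limma on either scale, against 5.

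Other pathway genes called for 18 over 6 months were 5 higher and 6 lower with DESeq2, 6 and 6 with all 12 libraries, 1 higher with library size alone and with limma on either scale, and 0 to 7 and 0 to 6 with 1 left out. For 4 years over 18 months they were 7 and 7 with DESeq2, 6 and 9 with all 12 libraries, and 0 to 10 and 0 to 11 with 1 left out. For 4 years over 6 months, 17 were higher with library size alone and with limma on log2(FPKM + 0.1), and lower ones were 9 with library size alone, 7 with limma on log2(FPKM + 1) and 9 on log2(FPKM + 0.1). For cattle–yak over yak of 6 months, higher ones were 16, 15 and 17 and lower ones 9, 5 and 6 with these 3 settings. In cattle–yak over yak of 4 years they were 6 to 12 higher and 8 to 10 lower with 1 left out.

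Same-numbered samples did not deviate together over all genes (correlation −0.112 to 0.071), and the main fits did not pair them. With 3 libraries a group, this check cannot settle whether same-numbered samples shared a batch. With the replicate block, 0 members were higher and 1 lower for 18 over 6 months, and 2 other pathway genes were higher and 1 lower. Over all genes the block gave 235 higher and 303 lower there. The cause of these changes was not tested. Depth limits *HEY1* and *GDNF*, and 3 libraries a group limit every comparison.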

Other observations

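The yaks of 18 months held several other pathway genes at unlike levels in their 3 libraries. *DLL3* was at 0.42, 2.98 and 0.70 FPKM, *DLK2* at 0.14, 12.2 and 1.62 FPKM, *NRARP* at 0.11, 5.02 and 0.54 FPKM, *HES2* at 1.60, 17.5 and 1.88 FPKM and *HES4* at 0.96, 2.69 and 0.99 FPKM, in the order of replicates 1, 2 and 3. In each of these genes replicate 2 was the highest of its group, and all 3 replicates lay below all yaks of 4 years. *HEY2* differed, at 1.49, 10.6 and 21.2 FPKM, with replicate 3 the highest. In cattle–yak, *HES2* was at 52.2, 32.9 and 49.1 FPKM and *DLK2* at 32.6, 28.8 and 41.9 FPKM, levels in which every cattle–yak was above every yak of 6 and 18 months, while *DLL3* was at 0.66, 0.51 and 0.46 FPKM and *NRARP* at 0.97, 0.90 and 0.42 FPKM. Against yak of 6 months, *HES2* was higher in cattle–yak (log2 fold change 4.75, edgeR adjusted p = 7.81e-05), as were *HEY2* (3.07) and *TLE3* (2.70), and *DLL1* was lower (−4.16).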
